A study of Mus musculus with 81 samples.

Results

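The Ugt2b genes encode uridine diphosphate glucuronosyltransferases of subfamily 2B, and 7 of them were described in the livers of male BXD mice on a high-fat or a chow diet. The members were all rows of the deposited table whose gene symbol was Ugt2b1, Ugt2b5, Ugt2b34, Ugt2b35, Ugt2b36, Ugt2b37 or Ugt2b38. Each of the 7 genes had 1 probe set, out of 21765 genes and 25096 probe sets with a single gene symbol. BXD strains are inbred mouse lines whose genomes are mosaics of the parental strains C57BL/6J and DBA/2J, and both parents were sampled beside them. The high-fat group had 40 arrays from mice fed Harlan 06414 from 8 weeks of age, and the chow group had 41 arrays from mice fed Harlan 2018. All mice were males killed at 29 weeks after an overnight fast, and each array was hybridised with an even pool of liver RNA from about 5 mice that shared strain and diet. Of the 42 strains, 39 had an array on both diets (37 BXD strains and both parents). BXD50 was measured on high fat alone, and BXD60 and BXD92a on chow alone. A strain has 1 pool per diet, so the p-values below rest on differences between pools and do not measure the spread between animals.

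UGT2B enzymes sit in the endoplasmic reticulum membrane, where they transfer glucuronic acid from UDP-glucuronic acid to a hydroxyl or other acceptor group. The products are more soluble in water and leave the cell through transporters into bile or blood. Steroid hormones, bile acids and many drugs are known substrates in liver, and several mouse Ugt2b genes, among them Ugt2b1 and Ugt2b38, are known to be more abundant in male than in female liver. The mouse genes form a cluster on chromosome 5.

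The deposited values are scores, standardised so that each array averages 8 with a standard deviation of 2. They behave like values on a logarithmic scale of unstated base, so differences are given in score units and no fold changes are given. Array medians lay between 7.66 and 7.81. Precision is limited by how many arrays there are. The label of liver was set against marker genes: the mean of 8 hepatocyte markers lay between 14.67 and 15.05 on all arrays, while the mean of 4 adipocyte markers stayed at or under 7.34 and that of 5 kidney tubule markers at or under 7.57. Xist was at or under 6.25 and Ddx3y at or above 10.08 on every array. The mean of 10 pancreatic acinar markers was highest on the BXD63 high-fat array at 9.88, against a high-fat median of 7.44, and on the DBA/2J chow array at 9.22, against a chow median of 7.45. The BXD61 chow array had the highest macrophage marker mean of all arrays (11.09, chow median 9.81), the highest stellate (10.37, chow median 9.64) and cholangiocyte means (8.73, chow median 7.86), and the lowest hepatocyte mean (14.67, chow median 14.91). Less RNA per cell and fewer cells of a type cannot be told apart in whole liver.

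The 7 genes lie between chr5:86889770-87424203 in the RefSeq annotation of mouse assembly GRCm38.p6, a span of 534434 bases, and all 7 matched an entry of its promoter table. Ugt2b35 is on the plus strand and the other 6 are on the minus strand. In chromosome order they are Ugt2b34, Ugt2b1, Ugt2b35, Ugt2b36, Ugt2b5, Ugt2b37 and Ugt2b38, with Ugt2a3 between Ugt2b37 and Ugt2b38. The 120 bases before the start site are shown for 5 members on which the results turn: Ugt2b37 and Ugt2b38, which differed in the direction of their diet difference, Ugt2b5, which tracked Ugt2b38 over strains, Ugt2b1, with the widest range of diet differences, and Ugt2b36, for which strain BXD61 stood apart. Each is written 5′ to 3′ on the strand of its gene, and the capitals mark the letters GTTANANNTTAAC, where N is any base. The intervals are chr5:87254789-87254908 (minus strand) for Ugt2b37, chr5:87424204-87424323 (minus) for Ugt2b38, chr5:87140341-87140460 (minus) for Ugt2b5, chr5:86926504-86926623 (minus) for Ugt2b1 and chr5:87092556-87092675 (minus) for Ugt2b36.
Ugt2b37: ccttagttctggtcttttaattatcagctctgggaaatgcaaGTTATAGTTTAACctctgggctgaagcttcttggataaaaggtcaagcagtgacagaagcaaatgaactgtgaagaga
Ugt2b38: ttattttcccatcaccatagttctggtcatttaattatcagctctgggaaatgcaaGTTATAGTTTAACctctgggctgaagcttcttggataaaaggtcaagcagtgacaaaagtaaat
Ugt2b5: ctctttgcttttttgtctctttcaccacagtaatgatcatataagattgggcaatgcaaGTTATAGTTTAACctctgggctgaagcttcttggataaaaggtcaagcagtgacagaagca
Ugt2b1: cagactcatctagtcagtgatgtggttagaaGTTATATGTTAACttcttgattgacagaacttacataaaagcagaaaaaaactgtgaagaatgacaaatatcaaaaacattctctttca
Ugt2b36: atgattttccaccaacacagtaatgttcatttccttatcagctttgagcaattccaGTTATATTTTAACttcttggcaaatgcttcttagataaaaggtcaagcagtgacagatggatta

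All 7 members held GTTANANNTTAAC once, with its first base between 61 and 89 bases before the start site. The pattern was written from the members' own sequences, so that count is no test. Searched on both strands of the 250 bases before each start, it occurred in 28 of 32851 mouse promoters (0.0852%), which belonged to 27 genes. Of the other 20 genes, 1 was a glucuronosyltransferase, Ugt3a1. The capitals spell GTTATAGTTTAAC in Ugt2b5, Ugt2b37 and Ugt2b38, GTTATATTTTAAC in Ugt2b35 and Ugt2b36, GTTATATGTTAAC in Ugt2b1 and GTTACACTTTAAC in Ugt2b34. The letters TTCNNNGAA, the core recognised by STAT5, occurred in 7.02% of promoters and in 0 members. Over the 250 bases the promoters of Ugt2b37 and Ugt2b38 were 85.2% identical, those of Ugt2b5 and Ugt2b38 81.5%, and those of Ugt2b5 and Ugt2b37 73.0%. The remaining 18 pairs lay between 48.99% and 60.4%. These identities are of bases before the transcript, so they do not show how alike the transcripts are. Genes of a family can share array probes, and neither transcript nor probe sequences were used here. The score of a single member is thus uncertain as to which gene gave it.

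The first comparison asked how the livers of the same strains differed between diets. Ugt2b5, Ugt2b38, Ugt2b1, Ugt2b35 and Ugt2b34 were lower on high fat, Ugt2b37 was higher, and Ugt2b36 did not pass the test. Thus 5 of 7 members were called lower and 1 higher, at a Benjamini-Hochberg adjusted p under 0.05 in limma's paired fit. Of all 25096 probe sets, 26.4% were called lower on high fat and 26.9% higher. The median diet difference was -0.196 over the 7 members and 0.00149 over all probe sets. Differences of this size were not rare: 4.19% of the probe sets with a single symbol and 3.98% of the 5222 negative-control probe sets had an absolute difference at least as large as that of Ugt2b38.

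Ugt2b5 scored 11.76, 12.40 and 12.89 on high fat (lowest, median, highest of 40 arrays), against 11.89, 12.76 and 13.23 on chow (41 arrays). The ranges of the diets overlapped, and 34 of 39 strains were lower on high fat. The mean paired difference was -0.313 ± 0.0539 (SE, n = 39 strains; limma, adjusted p = 4.56e-06).

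Ugt2b38 scored 10.74, 11.17 and 11.93 on high fat, against 10.56, 11.55 and 12.11 on chow. The lowest chow arrays, those of BXD61 and BXD44, lay below every high-fat array, although 32 of 39 strains were lower on high fat. The difference was -0.315 ± 0.0615 (limma, adjusted p = 3.45e-05).

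Ugt2b1, whose rat counterpart is known for glucuronidating bisphenol A, scored 12.24, 13.0045 and 13.53 on high fat, against 11.94, 13.30 and 13.69 on chow. It was lower on high fat in 36 of 39 strains, the most among the members, and the exceptions were BXD44, BXD61 and BXD63. The difference was -0.267 ± 0.0639 (limma, adjusted p = 0.000511).

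Ugt2b35 scored 10.90, 11.42 and 11.74 on high fat, against 10.98, 11.68 and 12.08 on chow, with overlapping ranges. It was lower on high fat in 32 of 39 strains, by a difference of -0.196 ± 0.0392 (limma, adjusted p = 4.87e-05). Ugt2b34 scored 13.13, 13.42 and 13.91 on high fat, against 13.01, 13.50 and 13.90 on chow. Its difference of -0.0922 ± 0.0278 was the smallest of the 6 called (limma, adjusted p = 0.00487), and 29 of 39 strains were lower on high fat. Of the negative-control probe sets, 51.9% differed by at least as much.

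Ugt2b36 scored 12.70, 13.81 and 14.12 on high fat, against 12.26, 13.91 and 14.16 on chow. Its difference was -0.0724 ± 0.0334 (limma, adjusted p = 0.0641), with 27 of 39 strains lower on high fat. The lowest array on either diet was that of BXD61, and without BXD61 the difference was -0.0858 (limma, adjusted p = 0.0203).

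Ugt2b37 scored 7.38, 7.97 and 8.58 on high fat, against 7.09, 7.82 and 8.71 on chow. It was higher on high fat in 26 of 39 strains, by 0.161 ± 0.0531 (limma, adjusted p = 0.00994). Its mean over all arrays, 7.87, lay within the range of the negative controls, 22.6% of which had a mean at least as high. Within strains, the diet difference of Ugt2b37 exceeded that of Ugt2b38 in 38 of 39 strains, by 0.475 ± 0.0362 (mean ± SE). This pair, with the most alike promoters of the family, was chosen after its opposite directions were seen, so the difference is a description with no test.

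**Figure D1:**
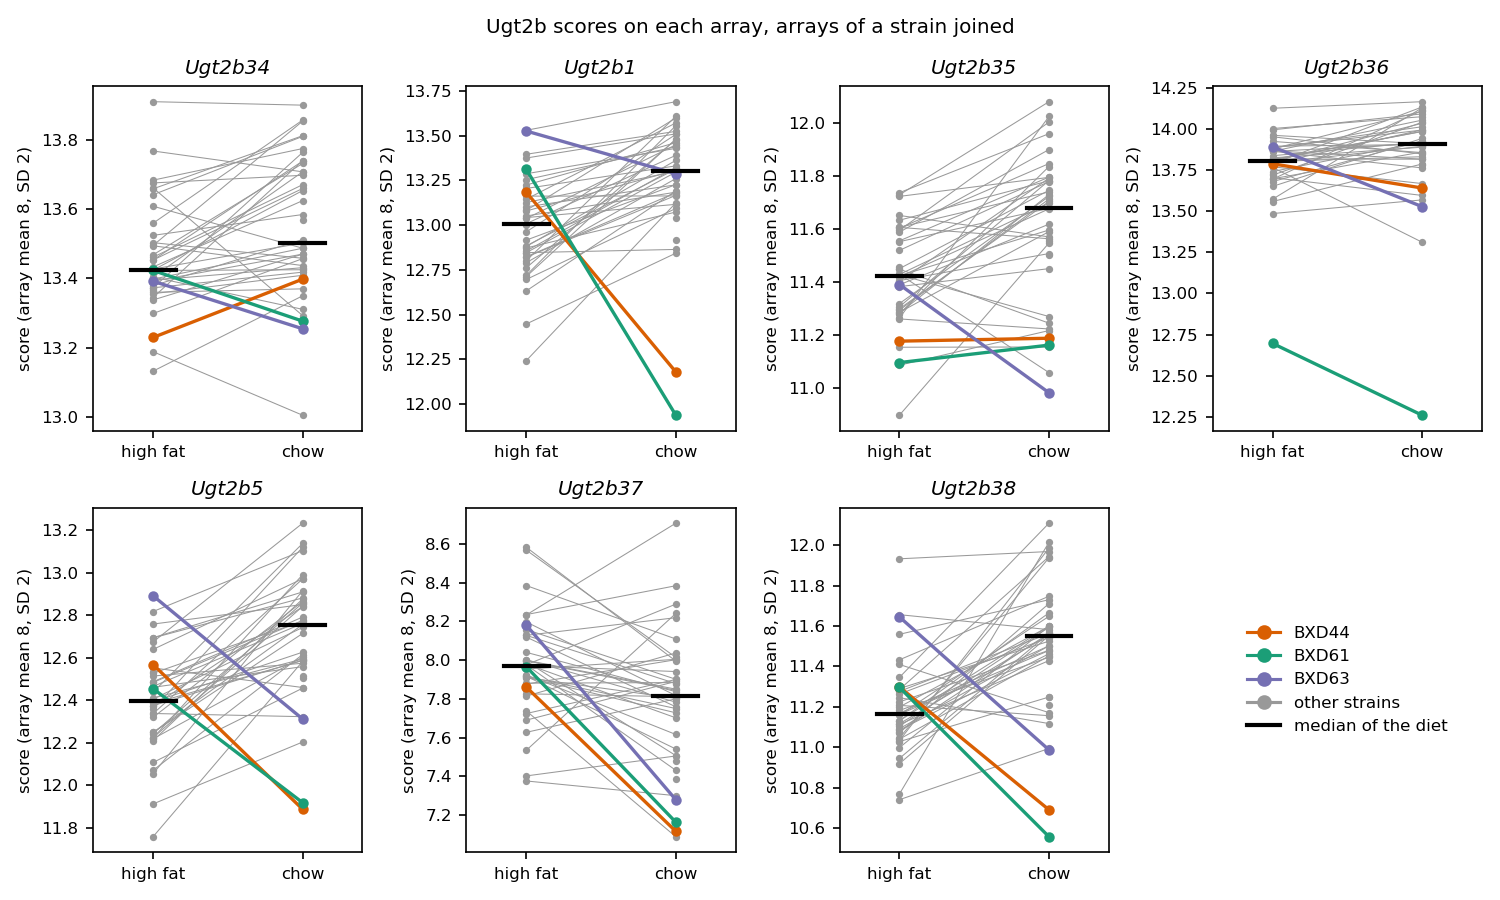
Scores of the 7 Ugt2b genes on every array, high fat left of chow, on the score scale with an array mean of 8. Points are arrays, lines join the arrays of a strain, black bars are medians; BXD44, BXD61 and BXD63 are coloured and slope the other way from most strains for Ugt2b1, Ugt2b5 and Ugt2b38, and BXD61 lies apart for Ugt2b36 on both diets.

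Strains BXD44, BXD61 and BXD63 ran against the rest of the cohort in several members. For Ugt2b1 their high fat minus chow differences were 1.01, 1.38 and 0.239, while the other 36 strains were all lower on high fat, with differences of -0.001 or less. For Ugt2b5 the differences in BXD44, BXD61 and BXD63 were 0.68, 0.536 and 0.579, and for Ugt2b38 they were 0.607, 0.738 and 0.657. The highest value among the other 36 strains was 0.092 for Ugt2b5 and 0.238 for Ugt2b38. For Ugt2b37, whose mean was higher on high fat, the same strains had the 3 largest differences, 0.745 in BXD44, 0.803 in BXD61 and 0.902 in BXD63. For Ugt2b34 the differences were -0.168 in BXD44, 0.146 in BXD61 and 0.137 in BXD63. BXD61 and BXD63 were thus above 0, where 29 of 39 strains were lower on high fat. All of these values lay inside the range of the others (-0.394 in BXD49 to 0.368 in BXD43).

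On chow, BXD61 and BXD44 had the lowest scores for Ugt2b1 (11.94 and 12.18, next lowest 12.84) and for Ugt2b38 (10.56 and 10.69, next lowest 10.99 in BXD63). They also had the lowest chow scores for Ugt2b5 (11.92 in BXD61 and 11.89 in BXD44). On high fat the same strains scored above the median for Ugt2b1, at 13.18 in BXD44, 13.31 in BXD61 and 13.53 in BXD63. The macrophage marker mean on chow was 11.09 in BXD61, 9.75 in BXD44 and 9.52 in BXD63, around a chow median of 9.81. The part of these markers in the Ugt2b scores was not tested.

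Genes outside the family did not all behave alike in these strains. Cidea, a lipid droplet protein gene, was higher on high fat in 37 of 39 strains, and the exceptions were BXD44 (difference -1.69, with 9.25 on chow against a chow median of 6.65) and BXD61 (-0.045), while BXD63 differed by 0.224. D630002G06Rik was higher on high fat and V165-D-J-Cmu lower in 39 of 39 strains, BXD44, BXD61 and BXD63 included. D630002G06Rik and V165-D-J-Cmu were picked for separating the diets in every strain, so their values in these strains are no check of the diet labels, and an exchange of labels was not tested.

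The diet fit was repeated without BXD44, BXD61 and BXD63, a choice made after their Ugt2b and Cyp2b9 differences were seen. Leaving out strains for running the other way narrows the spread and moves the means by construction, so the values only show what these strains contributed. In that fit, 6 of 7 members were called lower on high fat and 0 higher, where 27.2% and 28.1% of all probe sets were called lower and higher. Ugt2b1 then differed by -0.362 ± 0.0384, Ugt2b5 by -0.389 ± 0.0394 and Ugt2b38 by -0.396 ± 0.0477 (SE, n = 36). Ugt2b36 passed with -0.105 ± 0.0305 (adjusted p = 0.00358). Ugt2b37 no longer passed, at 0.106 ± 0.0482 (adjusted p = 0.0586), and was the 1 member of 7 above 0 with an unadjusted p under 0.05, where 30.4% of all probe sets were.

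**Figure D2:**
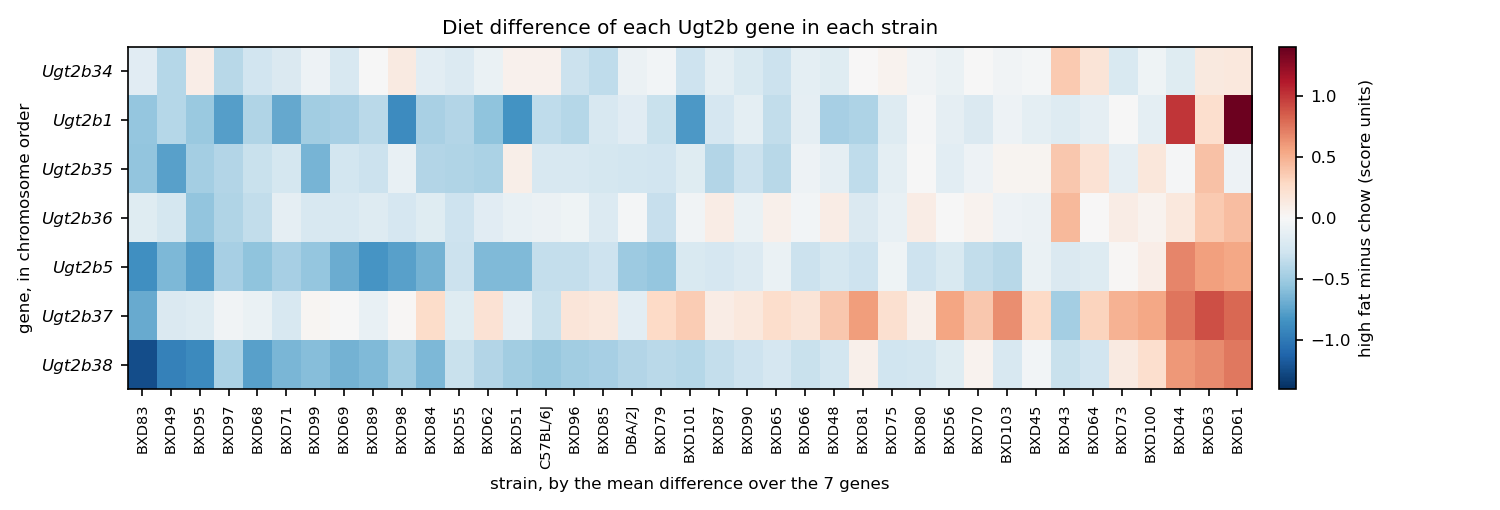
High fat minus chow difference of each Ugt2b gene (rows, in chromosome order) in each of the 39 strains (columns, ordered by the mean over the 7 genes), in score units, with blue lower and red higher on high fat. BXD44, BXD63 and BXD61 stand at the right end, and the Ugt2b37 row is red in 26 strains.

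The second comparison asked how much of the variation followed the strain. The strain share, the share of the variance around the diet means that the arrays of a strain had in common, was 70.6% for Ugt2b36, 56.2% for Ugt2b34, 45.6% for Ugt2b35 and 33.6% for Ugt2b37. These 4 members passed the moderated F-test over strains (limma, adjusted p = 1.13e-06, 0.00108, 0.00526 and 0.0293), where 22.6% of all probe sets passed and the median share was 19.9%. Ugt2b5 (12.8%, adjusted p = 0.227), Ugt2b1 (7.04%, adjusted p = 0.312) and Ugt2b38 (-0.913%, adjusted p = 0.474) did not pass. The error in this fit is how the arrays of a strain differ beyond the mean diet difference. Noise between pools and a strain's own response to diet cannot be told apart in it, nor in the parental contrast below.

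The call for Ugt2b36 rested on BXD61. That strain scored 12.70 on high fat and 12.26 on chow, and the next lowest arrays were 13.49 on high fat (C57BL/6J) and 13.31 on chow (BXD43). The gap from BXD61 to the next strain mean was 1.05 score units, and 99 of 25096 probe sets (0.394%) had a gap as wide at either end. Without BXD61 the share of Ugt2b36 was 25.4% and did not pass (limma, adjusted p = 0.129), where 23.5% of all probe sets passed. Ugt2b1 and Ugt2b5 moved the other way: with BXD44, BXD61 and BXD63 left out after their values were seen, their shares were 49.1% (adjusted p = 0.00329) and 42.9% (adjusted p = 0.011), and 5 of 7 members passed, against 23.4% of all probe sets.

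Ugt2b34 had its highest strain mean in BXD81 (13.90) and its lowest in BXD64 (13.10), around a median of 13.48. Ugt2b35 was also highest in BXD81 (11.91) and was lowest in BXD61 (11.13), around a median of 11.54. Ugt2b38 was highest in BXD45 (11.95) and lowest in BXD80 (10.87), and BXD80 was also lowest for Ugt2b5 (12.06) and Ugt2b37 (7.34). Neighbours in these orders mostly did not differ beyond their spread: the median gap between neighbouring strain means of Ugt2b34 was 0.00925, while the arrays of a strain, each taken from its diet mean, differed by a median of 0.114. Of the 38 gaps of each member, at most 2 were wider than that member's own median difference between the arrays of a strain. Gaps between so many ordered means are narrow whatever the strain share, so these counts do not rate how firm an order is.

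The correlation of high-fat with chow scores over the 39 strains described how far strains kept their order. Pearson's r was 0.583 for Ugt2b34 and 0.492 for Ugt2b35, against a median of 0.203 over all probe sets. It was 0.072 for Ugt2b1 and 0.132 for Ugt2b5 with all strains, and 0.51 and 0.429 without BXD44, BXD61 and BXD63 (36 strains). For Ugt2b36 r was 0.759 but Spearman's rho was 0.232, and r was 0.334 over the 36 strains. The arrays of a strain share genotype, and these values carry no test.

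The parental contrast compared C57BL/6J with DBA/2J, with 1 array of each on each diet. Of the 7 members, 0 passed (limma, adjusted p between 0.324 and 0.947) and 1, Ugt2b1, had an unadjusted p under 0.05, and 1.17% of all probe sets were called lower and 1.65% higher in C57BL/6J. Ugt2b1 was the member with the largest difference. It scored 12.82 on high fat and 13.18 on chow in C57BL/6J, against 13.53 on high fat and 13.69 on chow in DBA/2J. The DBA/2J arrays were the highest of all arrays on their diets, and the difference was -0.608 ± 0.282 (limma, adjusted p = 0.324). Without BXD44, BXD61 and BXD63, which enter the shared estimate of the spread and were left out after their values were seen, it was -0.608 ± 0.163 and passed (adjusted p = 0.0218), where 1.49% of all probe sets were called lower in C57BL/6J.

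For Ugt2b1, 28 of 37 BXD strain means lay between those of the parents, 9 lay below both and 0 above both. In means over both diets Ugt2b37 showed the parents near the top: 32 of 37 BXD strains lay below both, 4 between and 1 above. Counted from the lowest, C57BL/6J and DBA/2J were arrays 39 and 40 of 41 on chow. On high fat DBA/2J was array 37 of 40, while C57BL/6J, at 7.98, lay near the median of 7.97. For Ugt2b36, 25 of 37 lay above both parents, 11 between and 1, BXD61, below.

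The spread of strains around the median of a diet was compared between diets. Of the 7 members, 0 passed in limma (adjusted p between 0.847 and 0.995), and 0.00398% of all probe sets passed in each direction. At an unadjusted p under 0.05 there were 3 of 7 members and 5.26% of all probe sets. The mean absolute deviation of Ugt2b34 was smaller on high fat than on chow, with a difference of -0.0593 ± 0.0198, and those of Ugt2b35 and Ugt2b36 differed by -0.0694 ± 0.0334 and -0.057 ± 0.0247.

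The next comparison set each member's diet difference against that of Cyp2b9. Cyp2b9 encodes a cytochrome P450 known to be higher in female mouse liver. It scored 7.15, 12.49 and 14.55 on high fat (lowest, median, highest), against 6.55, 8.59 and 14.21 on chow, and was higher on high fat in 36 of 39 strains. The exceptions were again BXD44 (difference -5.34), BXD61 (-2.32) and BXD63 (-0.95), and the highest chow array was that of BXD44.

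Over the 39 strains, 4 of 7 members had a slope on the Cyp2b9 difference called below 0 and 0 above, where 0.47% of 25095 probe sets were called below 0 and 0.996% above. The slope, in score units per unit of Cyp2b9 difference, was -0.126 ± 0.0187 for Ugt2b1, -0.104 ± 0.0203 for Ugt2b38, -0.0945 ± 0.0174 for Ugt2b5 and -0.0754 ± 0.0191 for Ugt2b37 (SE, n = 39 strains; limma, adjusted p = 5.13e-05, 0.00273, 0.00137 and 0.0301). Ugt2b36 (-0.0365, adjusted p = 0.145), Ugt2b35 (-0.0312, adjusted p = 0.385) and Ugt2b34 (0.00416, adjusted p = 0.934) did not pass.

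These calls rested on the strains that ran against the rest. BXD44, BXD61 and BXD63 were the only strains with a Cyp2b9 difference below 0. Leaving them out shortens the range of that difference, from -5.34 to 7.79 with all strains and from 0.723 to 7.79 without them. A shorter range widens the error of any slope, so a lost call does not show that a slope is absent. With or without them, 6 members had a slope below 0, called or not. Without BXD44, BXD61 and BXD63, 0 of 7 members passed (limma, adjusted p between 0.987 and 0.999), and 3 of all probe sets (0.012%) passed. At an unadjusted p under 0.05 there were 1 of 7 members, Ugt2b1, and 4.6% of all probe sets. The slopes were then -0.0532 ± 0.0214 for Ugt2b1, -0.048 ± 0.0275 for Ugt2b38, -0.0356 ± 0.0229 for Ugt2b5 and -0.0471 ± 0.0279 for Ugt2b37. Leaving out BXD44 alone kept 1 member past the threshold, Ugt2b1. Leaving out BXD61 or BXD63 alone ended the call of Ugt2b37, with adjusted p = 0.131 and 0.0813.

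On high fat, Ugt2b1 was the member with the strongest correlation with Cyp2b9. Over the 40 high-fat arrays its scores had a Pearson correlation of -0.638 and a Spearman correlation of -0.696 with those of Cyp2b9, and -0.649 and -0.673 over the 37 high-fat arrays left without BXD44, BXD61 and BXD63. Over the 41 chow arrays the values were -0.398 and -0.438, and -0.375 and -0.402 over 38. Ugt2b37 had a Pearson correlation of 0.00682 with Cyp2b9 on high fat, while over the 41 chow arrays it had the strongest of the members, -0.452. Over the 38 it was -0.341, weaker than that of Ugt2b1. For Ugt2b5 the Pearson correlation was -0.112 on high fat and -0.298 on chow, and for Ugt2b38 it was -0.134 and -0.379. Ugt2b34, Ugt2b35 and Ugt2b36 had positive correlations with Cyp2b9 on high fat, 0.385, 0.363 and 0.36. Without BXD44, BXD61 and BXD63 these were 0.359, 0.227 and 0.0109. On chow they were 0.0585, -0.111 and -0.0179 over the 41 arrays. Arrays on a diet share the standardisation to a common mean and spread, and these correlations are descriptions with no test.

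**Figure D3:**
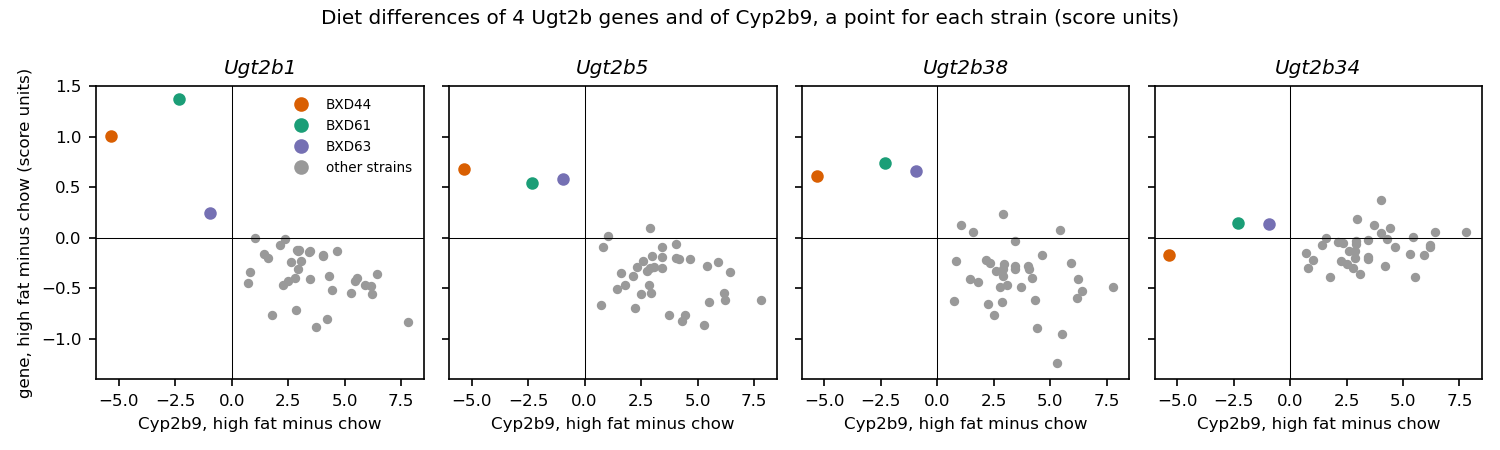
High fat minus chow difference of Ugt2b1, Ugt2b5, Ugt2b38 and Ugt2b34 (vertical axis) against that of Cyp2b9 (horizontal axis), in score units, with a point for each of the 39 strains. BXD44, BXD61 and BXD63 are coloured and are the 3 strains left of 0 on the Cyp2b9 axis; their points lie above the other strains for Ugt2b1, Ugt2b5 and Ugt2b38 and among them for Ugt2b34.

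Members also varied together over strains. All 21 pairs had a positive Pearson correlation on chow (median 0.651, range 0.25 to 0.879, 41 arrays), and 18 of 21 did on high fat (median 0.36, range -0.122 to 0.833, 40 arrays). Without BXD44, BXD61 and BXD63 the medians were 0.412 on high fat (37 arrays) and 0.448 on chow (38 arrays). The closest pair on either diet was Ugt2b5 and Ugt2b38, at 0.833 on high fat and 0.879 on chow. Ugt2b37 and Ugt2b38 correlated at 0.707 on high fat and 0.724 on chow although their mean diet differences had opposite signs. Ugt2b36 had correlations of at most 0.149 with Ugt2b1, Ugt2b5, Ugt2b34, Ugt2b37 and Ugt2b38 on high fat, while on chow it reached 0.686 with Ugt2b5. Without BXD44, BXD61 and BXD63 these high-fat correlations lay between 0.159 and 0.345, and the chow value with Ugt2b5 was 0.595. The pairs share arrays, and members with alike sequences may share probes.

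**Figure D4:**
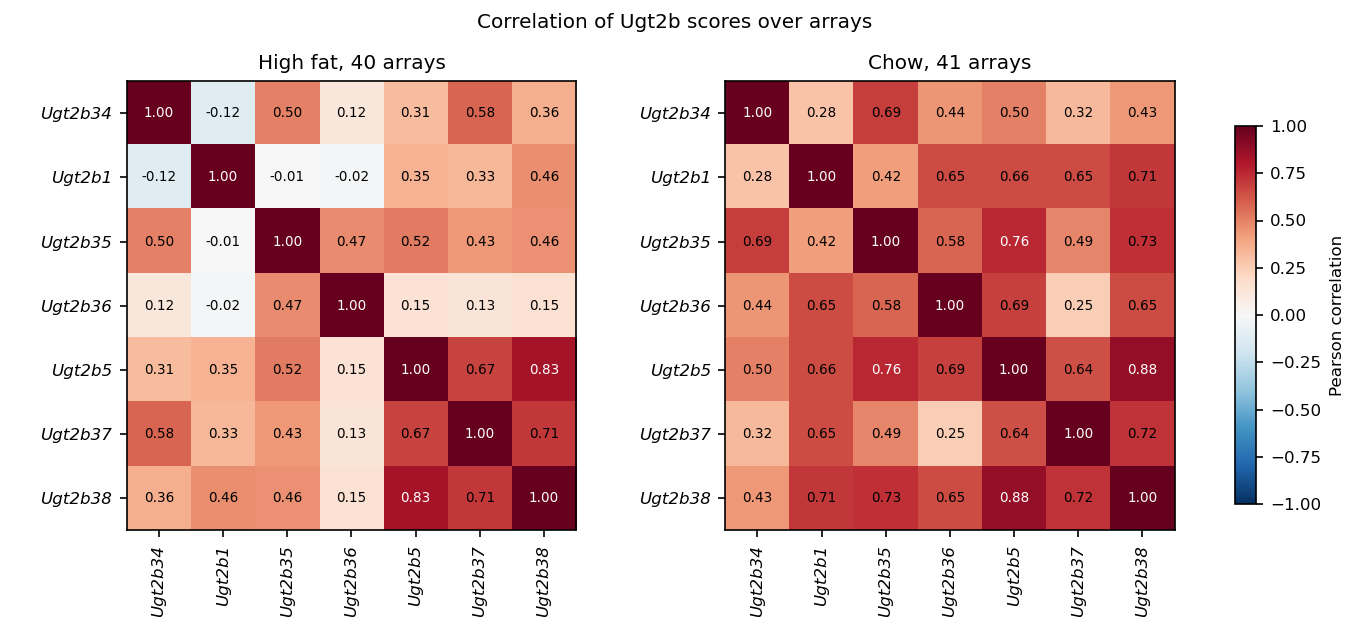
Pearson correlation between the scores of each pair of Ugt2b genes over the 40 high-fat arrays (left) and the 41 chow arrays (right), with genes in chromosome order. Ugt2b5, Ugt2b37 and Ugt2b38 form the block with the highest values on high fat, and all pairs are above 0 on chow.

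The genes most like each member over the 41 chow arrays were taken as the 3 others with the highest Pearson correlation. For Ugt2b1 they were 2810007J24Rik (0.88), Gm4738 (0.876) and Cyp1a2 (0.852), a cytochrome P450 that oxidises caffeine and aromatic amines. All 3 also ranked among the 23 nearest of 21758 genes on high fat, with correlations of 0.672, 0.733 and 0.739 over 40 arrays. Gm4738 kept a correlation of 0.813 on chow without BXD44, BXD61 and BXD63, and Cyp1a2 one of 0.53. For Ugt2b36 the nearest gene was Cyp2c29, a cytochrome P450, at 0.892 on chow but 0.197 on high fat. Cyp2c29, AU018778 and Es22, the 3 nearest to Ugt2b36, each had their lowest chow score in BXD61, as Ugt2b36 did, and without BXD61 their correlations were 0.675, 0.664 and 0.7 over 40 chow arrays.

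Ugt2b34 was most like Gclc (0.722), the catalytic subunit of the enzyme that starts glutathione synthesis, Gstm1 (0.699), a glutathione transferase, and Bnip3l (0.687). Ugt2b35 was most like Pcgf6 (0.764), Ugdh (0.734), which makes UDP-glucuronic acid, and Akr1c19 (0.714). Ugt2b5 and Ugt2b38 shared Cul2 (0.754 with each) and Glyat (0.714 and 0.767), the enzyme that conjugates acyl-CoA with glycine. The third gene was Akr1c14 (0.715) for Ugt2b5 and Slc35a3 (0.757) for Ugt2b38. Ugt2b37 was most like Psme4 (0.746), Gspt1 (0.746) and Ide (0.731). On high fat these correlations were lower, between 0.131 and 0.521 over 40 arrays. All of the nearest genes were picked for their chow values, so lower values on high fat do not measure a diet effect.

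Genes around the cluster were read in RefSeq order, from 10 genes before it to 10 after. Of 42 genes in that window 21 had a probe set, the 7 members and 14 others. Of the others 4 were lower and 5 higher on high fat, and 2 passed the strain test. Over all probe sets the shares were 26.4% lower, 26.9% higher and 22.6% passing the strain test. Among the called genes, Tmprss11a and Tmprss11b (lower) and Tmprss11g, Csn2 and Ugt2a1 (higher) were dim. Each of them averaged 6.34 or less on both diets, while the middle value among negative-control averages was 6.69. Ugt2a3, which lies inside the cluster and encodes a related enzyme, averaged 12.86 on high fat and 13.03 on chow, a difference of -0.175 ± 0.0441 (limma, adjusted p = 0.000924; lower in 33 of 39 strains). Beyond the cluster Sult1b1 and Sult1d1, sulfotransferases, were higher on high fat, by 0.327 ± 0.0712 and 0.151 ± 0.0498 (limma, adjusted p = 0.00016 and 0.00988). Ythdc1, an RNA-binding protein gene before the cluster, was lower on high fat (difference -0.138 ± 0.032; limma, adjusted p = 0.000358).

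Of 15 other glucuronosyltransferase genes listed, 6 were measured, and Ugt1a9 was the only Ugt1a gene among them. Ugt3a1 had 3 probe sets, of which the one with the highest mean was used. Of the 6 measured genes, 2 were lower on high fat and 2 higher, with a median difference of -0.0185. Of all probe sets, 26.4% were called lower and 26.9% higher. Ugt1a9 averaged 12.22 on high fat and 12.42 on chow (difference -0.195 ± 0.0269; limma, adjusted p = 6.81e-08), and Ugt2a3 is given above. Ugt3a1 and Ugt2a1 were higher, by 0.094 ± 0.0262 and 0.12 ± 0.0242 (limma, adjusted p = 0.00249 and 5.41e-05), and the Ugt2a1 means of 5.38 on high fat and 5.26 on chow lay below the negative-control median of 6.69.

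Of 13 measured genes for the supply and hydrolysis of UDP-glucuronic acid, 8 were higher and 3 lower on high fat (median 0.103). The shares over all probe sets were 26.9% higher and 26.4% lower. Higher genes included Ugp2, which makes UDP-glucose (0.198 ± 0.0351; limma, adjusted p = 7.66e-06), and Pgm1, a phosphoglucomutase (0.225 ± 0.0412; adjusted p = 1.23e-05). Pgm1 averaged 8.79 on high fat and 8.56 on chow. Pgm2, also a phosphoglucomutase, scored higher, at 11.80 on high fat and 11.77 on chow. The difference of Pgm2 did not pass, at 0.0242 ± 0.0272 (limma, adjusted p = 0.469). Gulo, which ends the path from glucuronic acid to vitamin C in mice, was higher by 0.262 ± 0.0367 (adjusted p = 8.95e-08). Ugdh, the step that makes UDP-glucuronic acid itself, was lower (-0.104 ± 0.0336; adjusted p = 0.00855), as was Gusb, the glucuronidase that splits glucuronides (-0.15 ± 0.0343; adjusted p = 0.00029).

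Of 20 genes known to be higher in male than in female liver, 15 were lower and 1 higher on high fat, with a median of -0.266, beside 26.4% and 26.9% of all probe sets. Gstp1, a glutathione transferase, differed by -0.424 ± 0.0558, Mup20, a major urinary protein, by -0.297 ± 0.045, Elovl3, a fatty acid elongase, by -0.638 ± 0.108, and C8b, a complement component, by -0.369 ± 0.0698 (limma, adjusted p between 2.34e-08 and 2.15e-05). Of the 20, 14 had a slope on the Cyp2b9 difference called below 0, where 0.47% of 25095 probe sets did. Without BXD44, BXD61 and BXD63, 0 of the 20 passed that test in limma, and 12 of the 20 had an unadjusted p under 0.05, where 4.6% of all probe sets did. The range of Cyp2b9 differences is shorter in that fit, as given above.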

How the data were processed

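Liver RNA pools of 39 BXD and parental strains on both diets, and of 3 strains on 1 diet, were hybridised to Affymetrix arrays after whole-transcript amplification (per the labels' protocols). Affymetrix Expression Console is named in the submitters' processing notes, and the summarisation method is, like the annotation release, not given in the sources used here. Values deposited by the authors are scores for 35556 probe sets, standardised so that each array averages 8 with a standard deviation of 2, which hides any change in total RNA. Fits used limma 3.58.1 in R 4.3.3 on the 25096 probe sets with 1 symbol, with Benjamini-Hochberg adjustment over all of them and a threshold of 0.05. Diet was fitted with strain as a block on 78 arrays of 39 strains; the strain name pairs the arrays, and the deviations of the arrays of a strain from their diet means correlated above 0.1 in 38 of 39 strains (median 0.388, BXD95 0.0289). Strains were tested with a moderated F-test, parents as a contrast in that fit, spread on absolute deviations from diet medians, and the slope on the diet difference of Cyp2b9. All fits were tested on simulated data. Alternatives covered normalization, dim probe sets, 1 probe set per gene, array weights, related strains, arrays with acinar transcripts, the strain block and each strain left out. The named genes were the members, the 3 most like each on chow, the cluster's neighbours, Cyp2b9, and from each list up to 4 per diet direction by smallest p. Some others, such as Pgm2, Sult3a1 and Cidea, were named beside these. The members and lists were chosen with earlier results of these data known. Promoters are from RefSeq, GRCm38.p6. Some genes that the lists hold are not reported here.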

Additional observations from a re-analysis of the deposited data

How the results depend on the processing

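The diet calls of Ugt2b1, Ugt2b5, Ugt2b35 and Ugt2b38 kept their direction and their side of the threshold under all 51 alternatives run, including each of the 39 strains left out. Without the replicate block on strain, the difference of Ugt2b34 missed the threshold on the 78 paired arrays (adjusted p = 0.0528) and passed on all 81 arrays (0.0458); it changed no other member's call. Ugt2b36 passed under 7 of 51 alternatives, among them array weights (adjusted p = 0.0333) and without the BXD63 and DBA/2J arrays, which held acinar pancreas transcripts (0.0285). Choices made after seeing the data left out BXD44, BXD61 and BXD63: 0 members were then called higher on high fat, and 1 was called lower in C57BL/6J. The same omission had been planned for the slope and left 0 members called. It took out the strains with a Cyp2b9 difference below 0, so it was not blind to the values in that fit. With each strain left out in turn, the count of members with a slope called below 0 ranged from 1 to 4. The Ugt2b37 strain call was lost with all probe sets in the table (adjusted p = 0.0548) and without BXD80, BXD97 and BXD103, whose profiles lie close to other strains (0.108), and its slope call with all probe sets (0.052) and without the acinar arrays (0.0563). No parental difference below passed in any setting: with each parental array left out in turn it ranged from -0.0421 to 0.111 for Ugt2b34, -0.42 to 0.0661 for Ugt2b37, -0.0111 to 0.213 for Ugt2b38 and -0.0278 to 0.171 for Ugt2b5. The spread difference of Ugt2b1, not called, was -0.0102 without the acinar arrays. The causes of these changes were not tested. Array signal limits Ugt2b37 most, since its mean lies inside the range of the negative controls.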

Other observations

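The other lists are counted beside the shares over all probe sets, of which 26.9% were called higher and 26.4% lower on high fat. Of 9 measured genes of sulfate conjugation, 5 were higher on high fat and 0 lower, with a median difference of 0.141. Sult3a1, with a difference of -0.0127, was the 1 gene below 0 (limma, adjusted p = 0.93). Sult1c2, a sulfotransferase, averaged 9.20 on high fat and 8.67 on chow (difference 0.533 ± 0.0571; limma, adjusted p = 1.76e-10; higher in 36 of 39 strains), and Papss2, which makes the sulfate donor, differed by 0.141 ± 0.0388 (adjusted p = 0.00223). Of 12 transporters of conjugates and organic anions, 5 were higher and 3 lower, the lower count being near the share over all probe sets. Among the uptake carriers, Slco2b1 was higher by 0.246 ± 0.0371 and Slco1b2 by 0.152 ± 0.0244, while Slco1a1 averaged 11.81 on high fat and 12.43 on chow (difference -0.622 ± 0.194; adjusted p = 0.00644; lower in 34 of 39 strains). Abcc2, the pump that exports glucuronides into bile, differed by -0.0574 ± 0.0239 (adjusted p = 0.0394) and had a strain share of 84.5%.

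Of 23 receptors and factors known to act on glucuronosyltransferase genes, 6 were higher and 4 lower on high fat, shares at or below those over all probe sets, so the count says nothing particular to them. Nr1i2, the pregnane X receptor, averaged 10.62 on high fat and 10.82 on chow (difference -0.195 ± 0.0343; adjusted p = 6.59e-06), and Hnf4a differed by -0.115 ± 0.029 (adjusted p = 0.000916). Stat5a was higher by 0.144 ± 0.0269 (adjusted p = 1.68e-05). Of 14 enzymes that make or turn over steroid and bile acid substrates, 3 were higher and 6 lower, among them Srd5a1, the steroid 5-alpha reductase, with a difference of -0.511 ± 0.0658 (adjusted p = 1.43e-08; lower in 34 of 39 strains), and Cyp7a1, the rate-limiting enzyme of bile acid synthesis, with one of 0.271 ± 0.0833 (adjusted p = 0.00582). Of 16 genes known to be higher in female liver, 6 were higher and 6 lower.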
